A study of Homo sapiens with 9 samples.

Results

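The genes described here are the 8 HOXA genes HOXA3, HOXA4, HOXA5, HOXA6, HOXA7, HOXA9, HOXA10 and HOXA11 together with MEIS1 and PBX3, which make 10 of the 56541 genes in the deposited table. They were taken by symbol. RNA was measured in MOLM-13 cells, an acute myeloid leukaemia line that carries a fusion of KMT2A with MLLT3, in 3 groups of 3 libraries. All cells, controls included, were grown with doxycycline at 200 ng/µL for 4 days. The shCONTROL group (RNA-seq) expressed a control hairpin. The shBCLAF1 group (RNA-seq) expressed one that targets BCLAF1, which encodes a protein of the nucleus that binds RNA. The RIP group was the RNA that came down with BCLAF1 in a precipitation from shCONTROL cells. Total RNA was extracted and depleted of ribosomal RNA, and the RIP samples started from more cells. The cells are of 1 line, the labels do not say how many hairpin sequences were used, and they name no mock precipitation. They also do not say whether replicates were separate cultures, so the p-values measure the spread between these samples, which may be technical.

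HOXA genes encode homeodomain transcription factors that are active in blood stem and progenitor cells and are switched off as myeloid cells mature. Their proteins bind DNA together with the homeodomain proteins of the PBX and MEIS families. Fusions of KMT2A keep the HOXA genes and MEIS1 switched on, and HOXA9 with MEIS1 as its partner is a known driver of this type of leukaemia, in which PBX3 is a further partner.

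On GRCh38 the HOXA genes lie side by side on chromosome 7, and in the RefSeq annotation many of them overlap. HOXA3 (chr7:27107010-27152583) spans HOXA4 (chr7:27128525-27130757), HOXA5 (chr7:27141052-27143681) and HOXA6 (chr7:27145396-27147774). HOXA7 (chr7:27153716-27156675) lies beyond them, followed by HOXA9 (chr7:27162438-27165537), HOXA10 (chr7:27170605-27179861) and HOXA11 (chr7:27181157-27185232). HOXA5, HOXA6 and HOXA7 also overlap the noncoding gene HOXA-AS3, and a read-through gene spans HOXA9 and HOXA10. Whether reads were counted by strand is not given in the sources used here, so the division of counts among overlapping genes is uncertain. MEIS1 lies at chr2:66435125-66573869 and PBX3 at chr9:125747373-125967377.

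The sequences upstream of 5 members are shown because they include members with and without a lower level after knock-down. Each is the 250 bases before a transcript start listed in RefSeq GRCh38.p14, which for PBX3 lies inside the annotated span of the gene, written 5′ to 3′ on the gene's strand, and capitals mark CCAAT on either strand, which reads ATTGG where it lies on the other strand. The windows are chr7:27156676-27156925 for HOXA7, chr7:27165538-27165787 for HOXA9, chr7:27185233-27185482 for HOXA11 (minus strand), chr2:66434875-66435124 for MEIS1 and chr9:125747933-125748182 for PBX3 (plus strand).
HOXA7: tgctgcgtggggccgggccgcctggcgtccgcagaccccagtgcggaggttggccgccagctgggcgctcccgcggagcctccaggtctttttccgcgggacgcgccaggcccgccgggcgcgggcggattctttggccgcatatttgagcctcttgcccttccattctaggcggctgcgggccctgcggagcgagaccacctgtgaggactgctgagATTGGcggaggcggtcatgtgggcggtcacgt
HOXA9: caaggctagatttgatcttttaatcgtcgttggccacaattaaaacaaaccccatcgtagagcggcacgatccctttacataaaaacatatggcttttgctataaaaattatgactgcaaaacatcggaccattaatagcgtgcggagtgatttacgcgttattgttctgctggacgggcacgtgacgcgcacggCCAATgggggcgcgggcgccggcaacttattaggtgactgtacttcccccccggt
MEIS1: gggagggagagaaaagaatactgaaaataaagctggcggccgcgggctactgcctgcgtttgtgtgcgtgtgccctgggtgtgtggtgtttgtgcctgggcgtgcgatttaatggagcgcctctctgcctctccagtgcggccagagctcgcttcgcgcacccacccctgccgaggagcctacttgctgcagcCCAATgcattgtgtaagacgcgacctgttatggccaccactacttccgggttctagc
HOXA11: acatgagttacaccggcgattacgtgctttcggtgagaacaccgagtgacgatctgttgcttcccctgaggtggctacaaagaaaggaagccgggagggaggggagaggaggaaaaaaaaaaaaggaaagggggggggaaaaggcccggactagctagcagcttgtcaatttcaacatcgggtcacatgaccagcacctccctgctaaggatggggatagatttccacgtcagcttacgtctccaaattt
PBX3: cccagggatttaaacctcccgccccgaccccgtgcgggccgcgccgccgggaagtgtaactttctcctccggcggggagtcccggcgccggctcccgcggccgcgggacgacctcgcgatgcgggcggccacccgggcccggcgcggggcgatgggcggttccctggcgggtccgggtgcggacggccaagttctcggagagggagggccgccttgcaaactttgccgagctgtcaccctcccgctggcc

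An upstream window was listed for 9 of the 10 members, with 16 windows in all. The member without a window was HOXA5, so the motifs could not be searched there. HOXA3 had 7 windows and HOXA10 had 2, which gave these genes more places to match. CCAAT, on either strand, stood in at least 1 window of HOXA3, HOXA4, HOXA6, HOXA7, HOXA9, HOXA10 and MEIS1, and in none of HOXA11 and PBX3. Counted by window, it stood in 8 of the members' 16 windows and in 32.0% of the 34788 windows of the same length in the table. Another 4 motifs were searched on both strands. TATAAA (10.8% of all windows) was found in HOXA3, HOXA9 and HOXA10, and CACGTG (6.31%) in HOXA3, HOXA4 and HOXA9. TGACAG (13.0%) was found in HOXA4 and PBX3, and TGATTNAT (2.48%) in no member. The PBX3 window was the richest in CG of those shown, with 36 CG dinucleotides, more than in 95.1% of all windows. The HOXA7 window held 28, HOXA9 20, MEIS1 16 and HOXA11 11, which was also the median of all windows. These are matches of letters and do not show that a factor binds there.

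The libraries held 25819144 to 36635268 estimated counts. Levels below are CPM, counts relative to library size, scaled by TMM over the 9 libraries. The floor of 3 counts equalled 0.0819 to 0.116 CPM of the total counts, before this scaling. Levels are not corrected for length and are compared only within a gene. BCLAF1 mRNA, the target of the hairpin, stood at 312 to 328 CPM in shCONTROL and 99.96 to 125 in shBCLAF1, or 35.2% of the control. Of the myeloid leukaemia markers examined for MOLM-13, 8 of 8 were above 0 in every group, while the defining markers CD3E and CD2 of T cells, MS4A1 of B cells and COL1A1 of stroma were at 0 in all libraries.

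After BCLAF1 knock-down, 8 of the 10 members fell, namely MEIS1 and all HOXA members except HOXA11. The falls were steepest in HOXA3 to HOXA7, which were left with 26.0% to 44.9% of their control level, and smaller in HOXA10, MEIS1 and HOXA9, with 62.1%, 54.8% and 74.1%. HOXA11 and PBX3 did not pass the test. A gene was called lower at an adjusted p under 0.05 in edgeR's quasi-likelihood test with Benjamini-Hochberg adjustment over all 16961 genes tested, and 16.9% of these genes were called lower and 15.5% higher. All 10 members had enough counts to be tested, and their median log2 fold change was -0.99, against 0.02 over all genes tested. In such bulk samples, fewer cells with a transcript and less RNA per cell cannot be told apart.

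HOXA9 (ENSG00000078399), the HOX factor most closely tied to this leukaemia, stood at 101, 98.5 and 92.6 CPM in shCONTROL replicates 1, 2 and 3. It stood at 72.6, 69.8 and 74.3 CPM in shBCLAF1. All shBCLAF1 libraries lay below all shCONTROL libraries, and the gap was larger than the spread within either group (97.4 ± 4.42 and 72.2 ± 2.32, mean ± SD, n = 3 each). The log2 fold change was -0.43 (SE 0.05, edgeR quasi-likelihood adjusted p 0.00144). MEIS1 (ENSG00000143995), which encodes its DNA-binding partner, stood at 82.3, 87.1 and 82.1 CPM in shCONTROL and at 47.7, 45.6 and 44.6 in shBCLAF1. Its groups were further apart than those of HOXA9, with a log2 fold change of -0.86 (SE 0.05, edgeR adjusted p 2.02e-04).

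PBX3 (ENSG00000167081), the other partner, was the only member higher in all shBCLAF1 libraries than in all controls. Its levels were 107, 105 and 107 CPM in shCONTROL and 115, 126 and 114 in shBCLAF1. The log2 fold change of 0.16 (SE 0.05) did not pass (edgeR adjusted p 0.0601). The call depends on the processing, since PBX3 passed with DESeq2 (adjusted p 0.0352), with scaling by total counts (edgeR, 0.0215) or by the upper quartile (0.0497), and without shBCLAF1 replicate 3 (0.0493). No member was called higher, and 1, PBX3, had a positive change at an unadjusted p under 0.05 and was also called higher by DESeq2.

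**Figure D1:**
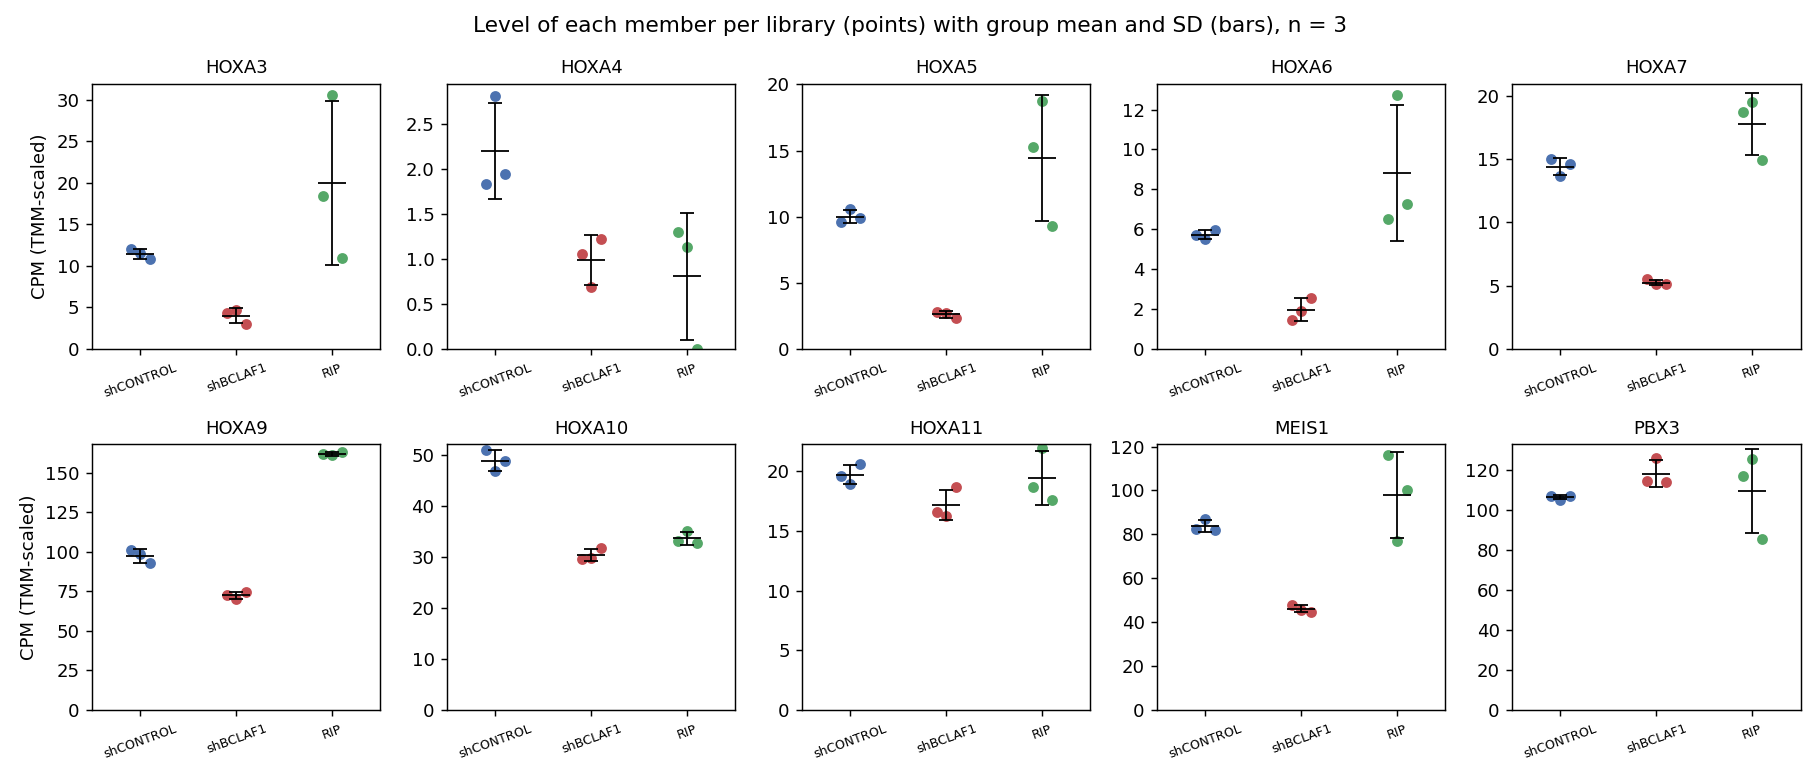
Level of each of the 10 members in each library, in TMM-scaled CPM on a linear axis from 0, for shCONTROL, shBCLAF1 and RIP. Points are libraries, and bars are group means with SD (n = 3). The shBCLAF1 points lie below the shCONTROL points in every panel except that of PBX3, and the RIP points of HOXA9 lie above both other groups.

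HOXA7 (ENSG00000122592), which is often coexpressed with HOXA9 in KMT2A leukaemia, stood at 15.0, 13.7 and 14.6 CPM in shCONTROL and at 5.50, 5.13 and 5.10 in shBCLAF1. The replicates lay close together, and the log2 fold change of -1.45 had a small error (SE 0.08, edgeR adjusted p 2.14e-04). HOXA5 (ENSG00000106004), a regulator of myeloid and lung development, had the largest fall of the members. It stood at 9.60, 10.5 and 9.88 CPM in shCONTROL and at 2.79, 2.697 and 2.32 in shBCLAF1, a log2 fold change of -1.92 (SE 0.12, edgeR adjusted p 2.34e-04).

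HOXA3 (ENSG00000105997), an anterior HOX gene, stood at 12.0, 11.5 and 10.8 CPM in shCONTROL and at 4.37, 4.63 and 2.95 in shBCLAF1, with replicate 3 the lowest. HOXA6 (ENSG00000106006) stood at 5.69, 5.51 and 5.95 CPM in shCONTROL and at 1.45, 1.90 and 2.56 in shBCLAF1, with replicate 3 the highest. Neither gene had overlapping groups. Their log2 fold changes were -1.50 (SE 0.19) and -1.51 (SE 0.22), with edgeR adjusted p of 0.00194 and 0.00334. HOXA4 (ENSG00000197576) had the fewest counts, with 65, 95 and 70 counts in shCONTROL and 40, 26 and 45 in shBCLAF1. In CPM these were 1.84, 2.81 and 1.95 against 1.05, 0.688 and 1.23. Its log2 fold change of -1.11 (SE 0.29, edgeR adjusted p 0.0261) is the weakest of the calls, which was lost without shCONTROL replicate 2 (0.0816) or 3 (0.0564), without shBCLAF1 replicate 1 (0.0660) or 2 (0.0609), in the fit of all 9 libraries (0.551) and with the replicate block (0.0891).

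HOXA10 (ENSG00000253293), a regulator of myeloid progenitors, stood at 50.9, 46.8 and 48.8 CPM in shCONTROL and at 29.6, 29.7 and 31.7 in shBCLAF1. The log2 fold change was -0.68 (SE 0.06, edgeR adjusted p 4.88e-04). HOXA11 (ENSG00000005073), the next gene along the cluster, stood at 19.6, 19.0 and 20.6 CPM in shCONTROL and at 16.6, 16.3 and 18.7 in shBCLAF1. Its groups did not overlap, but the gap was small beside the spread, with a log2 fold change of -0.19 (SE 0.08, edgeR adjusted p 0.112). Without shBCLAF1 replicate 3 it passed (edgeR adjusted p 0.0424). The 7 members that fell other than HOXA4 passed the threshold in all 12 alternative fits.

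HOXA13, a neighbour of the members beyond HOXA11, also fell, with a log2 fold change of -1.02 (edgeR adjusted p 0.00175). Along the cluster the steep falls of HOXA3 to HOXA7 were thus followed by the smaller changes of HOXA9, HOXA10 and HOXA11 and the fall of HOXA13. No test was made of this order. No HOXB, HOXC or HOXD gene on the written list was above 0 in any library.

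**Figure D2:**
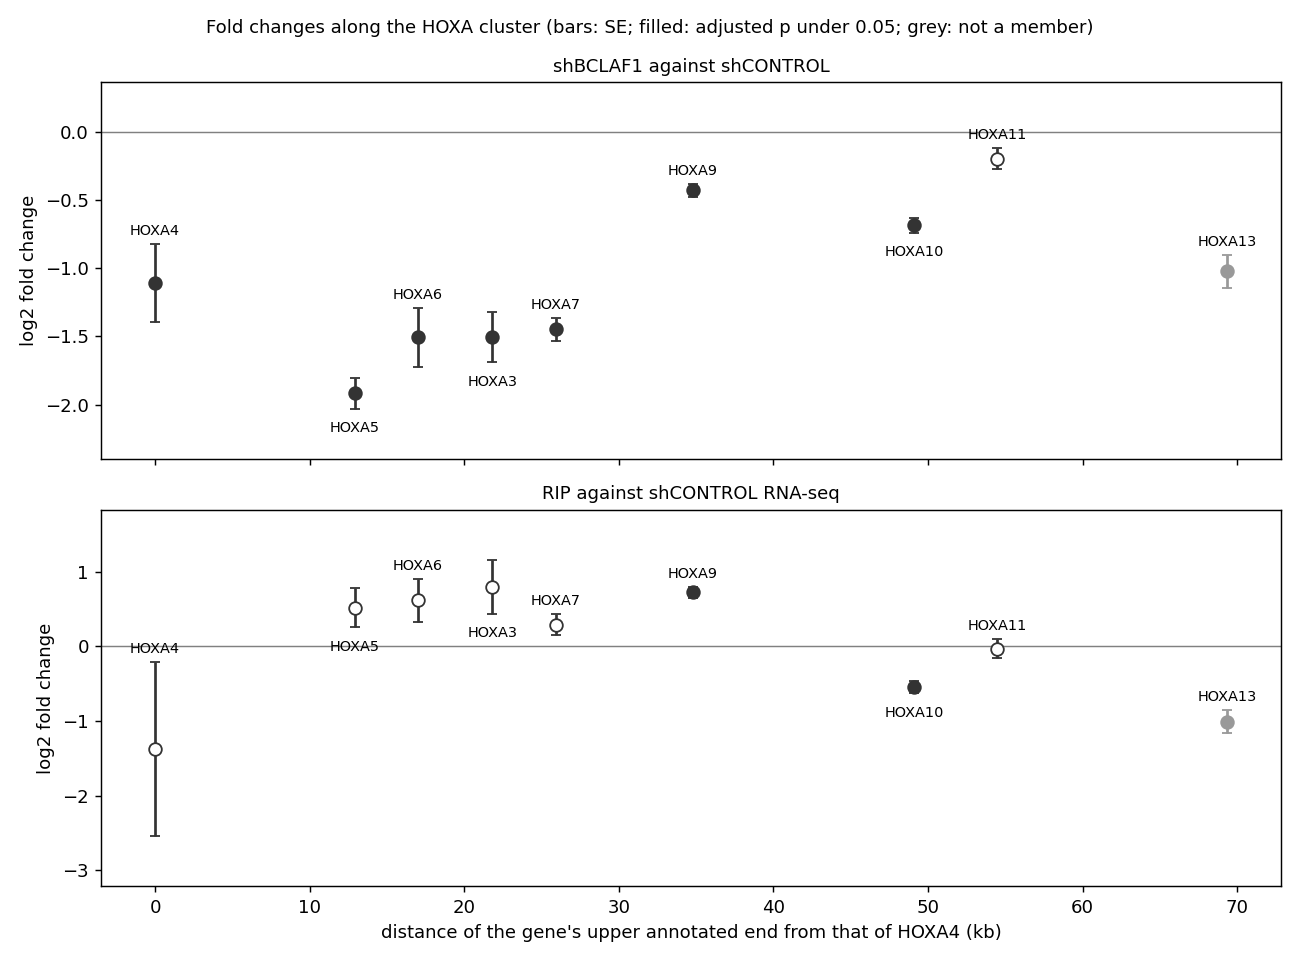
Log2 fold change of the HOXA members and HOXA13, after knock-down and in the RIP, against the distance of the gene's upper annotated end from that of HOXA4, in kb. Bars are standard errors and filled points are genes with an edgeR adjusted p under 0.05. HOXA3 to HOXA7 lie lowest after knock-down, between -1.92 and -1.11, and HOXA9 to HOXA11 lie nearer to 0.

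The unequal falls changed the makeup of the HOXA transcripts. The 8 HOXA members summed to 205 to 216 CPM in shCONTROL and 131 to 139 in shBCLAF1, or 64.1% of the control. HOXA3 to HOXA7 together made 20.4% to 21.2% of these counts in shCONTROL and 10.2% to 11.5% in shBCLAF1. The share of HOXA9 was 45.1% to 47.3% in shCONTROL and 53.3% to 54.2% in shBCLAF1, although HOXA9 itself fell. The share of HOXA11 was 9.10% to 10.04% in shCONTROL and 12.4% to 13.4% in shBCLAF1. HOXA10 kept a similar share, with 22.4% to 23.8% and 22.1% to 22.8%. Shares of counts depend on transcript length, so they are compared between groups and not between genes.

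**Figure D3:**
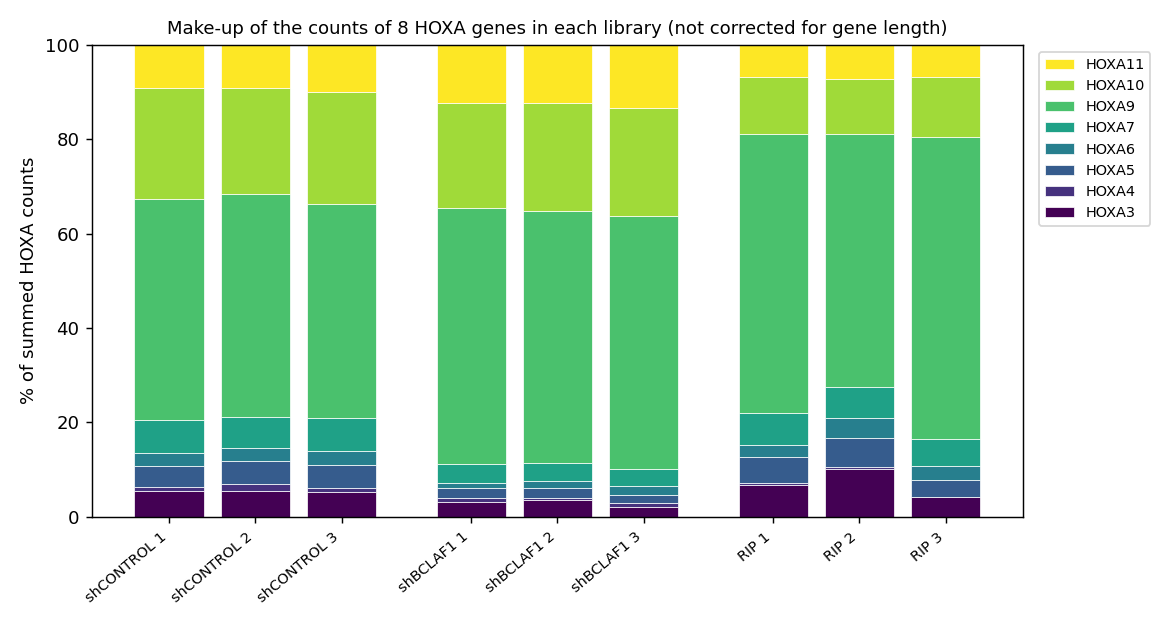
Share of each HOXA member in the summed counts of the 8 HOXA members, in percent, for each of the 9 libraries. The HOXA9 block covers 45.1% to 47.3% of the shCONTROL bars, 53.3% to 54.2% of the shBCLAF1 bars and 53.5% to 63.8% of the RIP bars.

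Ratios between members within a library do not depend on the scaling. Here 6 ratios were compared with shCONTROL in shBCLAF1 and in the RIP, 12 comparisons in all. An exact two-sided permutation test of 3 against 3 libraries cannot give less than 0.1. With the p-values obtained, adjustment over the 12 turned 0.1 into 0.12. PBX3 counts were 1.21 to 1.30 times those of MEIS1 in shCONTROL and 2.40 to 2.77 times in shBCLAF1. HOXA7 counts were 0.139 to 0.158 of those of HOXA9 in shCONTROL and 0.0686 to 0.0757 in shBCLAF1. MEIS1 counts were 0.813 to 0.887 of those of HOXA9 in shCONTROL and 0.600 to 0.657 in shBCLAF1. The groups of these 3 ratios did not overlap, and each reached the smallest p the exact test allows (0.1, adjusted 0.12). Most of the 12 comparisons reached this value, so it does not set these 3 apart.

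The RIP was compared with the RNA-seq of shCONTROL cells. Enriched and depleted genes had to pass the same edgeR test and also reach a log2 fold change of 1 or more in either direction, which 11.0% of the 16727 genes tested met as enriched and 13.5% as depleted. No member was enriched or depleted. At this size, 0 members had an unadjusted p under 0.05 and DESeq2 called 0. Without the minimum, HOXA9 was higher and HOXA10 lower, where 24.6% of all genes were higher and 24.7% lower. The members' median log2 fold change was 0.25, against -0.05 over all genes. The RIP shares its shCONTROL libraries with the knock-down comparison, so the results of the 2 are not independent. Scaling by total counts moved the RIP's median log2 fold change over all genes by -0.11.

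HOXA9 mRNA stood at 162, 161 and 163 CPM in RIP replicates 1, 2 and 3, or 166% of its shCONTROL level. The RIP libraries lay within 3 CPM of each other and above every RNA-seq library. The log2 fold change was 0.73 (SE 0.07, edgeR adjusted p 7.22e-04). HOXA10 mRNA stood at 33.1, 35.0 and 32.6 CPM in the RIP, below every shCONTROL library, at 68.8% of their mean. Its log2 fold change was -0.55 (SE 0.08, edgeR adjusted p 0.00293). HOXA9 and HOXA10 passed in 13 of 14 alternatives, the exception being the stricter test for a change beyond 1 on the log2 scale. With shCONTROL and shBCLAF1 averaged as the reference, the log2 fold change of HOXA10 was -0.20 (edgeR adjusted p 0.0235). These neighbours in the cluster thus lay on opposite sides of their levels in shCONTROL RNA-seq. HOXA9 counts were 1.90 to 2.11 times those of HOXA10 in shCONTROL and 4.59 to 5.01 times in the RIP, without overlap (exact permutation p 0.1, adjusted 0.12).

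MEIS1 mRNA stood at 116, 77.1 and 100.2 CPM in the RIP, a wide spread that overlapped the controls. Its log2 fold change was 0.21 (SE 0.15, edgeR adjusted p 0.278), but 0.079 (0.649) without RIP replicate 1 and 0.35 (0.0214) without RIP replicate 2. PBX3 mRNA stood at 117, 126 and 85.5 CPM in the RIP, on both sides of the controls, with a log2 fold change of 0.03 (SE 0.16, edgeR adjusted p 0.866). The sign of this value turned in some alternatives, for example to -0.082 under total counts. HOXA11, at 18.7, 22.0 and 17.6 CPM, also overlapped the controls, with a log2 fold change of -0.03 (SE 0.12, edgeR adjusted p 0.856) that was 0.041 without RIP replicate 3.

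Most of the genes HOXA3 to HOXA7 varied widely between RIP libraries. HOXA3 stood at 18.4, 30.5 and 10.9 CPM, HOXA5 at 15.3, 18.8 and 9.31 and HOXA7 at 18.8, 19.6 and 15.0. In each of these, replicate 2 was the highest and replicate 3 the lowest, and replicate 3 did not lie above all controls. The log2 fold changes were 0.80 (SE 0.36) for HOXA3, 0.52 (SE 0.26) for HOXA5 and 0.29 (SE 0.14) for HOXA7, with edgeR adjusted p of 0.118, 0.149 and 0.131. None of the 3 was called, and the values depend on single libraries. Without RIP replicate 2 they were 0.35 (edgeR adjusted p 0.290) for HOXA3, 0.28 (0.363) for HOXA5 and 0.21 (0.262) for HOXA7. Without RIP replicate 3 they were 1.10 (edgeR adjusted p 0.0160) for HOXA3, 0.76 (0.00884) for HOXA5 and 0.41 (0.0247) for HOXA7, and HOXA3 met the minimum for enrichment.

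HOXA6 stood at 6.49, 12.7 and 7.26 CPM in the RIP, above every control library. Replicate 2 again stood highest, and the log2 fold change of 0.62 (SE 0.29) did not pass (edgeR adjusted p 0.120) and was 0.25 (0.201) without replicate 2. HOXA4 was listed at 0 in RIP replicate 3 and at 33 and 32 counts in replicates 1 and 2, or 1.30 and 1.13 CPM. Its log2 fold change of -1.38 had an error nearly as large as itself (SE 1.17, edgeR adjusted p 0.345). HOXA3 to HOXA7 together made 22.0%, 27.5% and 16.6% of the HOXA counts in RIP replicates 1, 2 and 3, on both sides of the controls. HOXA9 made 53.5% to 63.8% and HOXA10 11.7% to 12.7%.

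The noncoding RNAs of the locus and the other genes of the pathway were counted from written lists. Of 10 noncoding or read-through genes beside the members, 8 were in the table and 6 were tested. After knock-down 3 fell: HOXA-AS2, which overlaps HOXA3 and HOXA4, had a log2 fold change of -1.72 (edgeR adjusted p 0.00290), MEIS1-AS2 -1.05 (0.00285) and HOXA10-AS -0.72 (0.00815). The gene that rose was HOTAIRM1, a noncoding RNA of the HOXA locus that is known to increase in maturing myeloid cells, with 0.65 (edgeR adjusted p 0.0235). Among all genes tested, 16.9% were called lower and 15.5% higher. HOXA-AS3 held 137, 70 and 0 counts in shBCLAF1 and did not pass (edgeR adjusted p 0.401). In the RIP, HOXA10-AS was higher (0.95, edgeR adjusted p 0.00440), opposite to HOXA10, and MEIS1-AS2 was depleted (-1.14, 0.0147). HOXA13 was depleted (-1.01, edgeR adjusted p 0.00278). Of all genes tested in the RIP, 24.6% were higher without the minimum and 13.5% were depleted.

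Of 9 other genes of the TALE class, to which MEIS and PBX factors belong, 5 were tested, and TGIF2, a repressor, was the 1 that fell after knock-down (-0.14, edgeR adjusted p 0.0471). MEIS2 (-0.27) and PBX2 (0.06), the closest relatives of MEIS1 and PBX3 tested, did not pass. The list of the KMT2A-fusion complex, the machinery that keeps HOXA genes active, had 7 of 18 genes lower and 0 higher. These falls were small, as in KMT2A (-0.41), RBBP5, a subunit of KMT2 methyltransferase complexes (-0.41), and PSIP1, which tethers KMT2A to chromatin (-0.31). MLLT3, the fusion partner of KMT2A in this line, fell by 0.48 on the log2 scale (edgeR adjusted p 0.0195). The list's median was -0.13. Over all genes, 16.9% were called lower. In the RIP, 11 of these 18 genes were higher and 2 lower without the minimum. Among all genes tested there, 24.6% were higher and 24.7% lower. KAT6A (1.05) and DOT1L (1.06), a histone methyltransferase recruited by KMT2A fusions, were enriched, as were 11.0% of all genes. DOT1L varied widely between RIP libraries, from 349 to 825 CPM.

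Of 18 genes known to act downstream of HOXA9 and MEIS1, 13 were tested, and ERG, CD34, KIT, TRIB2 and HLF were at 0 in all libraries. After knock-down 6 fell, among them MYC (log2 fold change -0.88), a driver of proliferation, BCL2 (-0.84), which protects cells from apoptosis, and MEF2C (-0.65), a transcription factor of this leukaemia. Another 3 rose, namely LMO2 (0.95), a cofactor of blood transcription factors, SYK (0.44), a kinase, and ID2 (0.68), an inhibitor of helix-loop-helix factors. The median of the list was -0.13, and over all genes 16.9% were called lower and 15.5% higher. In the RIP, 6 of the 13 were higher and 4 lower without the minimum. MYB (1.21) and ID2 (1.32) were enriched, and CDK6 (-0.81), SOX4 (-0.66) and LMO2 (-0.74) were among the lower. The RIP shares over all genes were 24.6% higher and 24.7% lower without the minimum, and 11.0% enriched.

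Markers of myeloid maturation moved with the knock-down. Of 12, 10 were tested, 8 rose and 0 fell, with a median log2 fold change of 2.25. Over all genes, 15.5% were called higher. CSF1R, with a log2 fold change of -0.47 (edgeR adjusted p 0.122), and ITGAM, with 0.56 (0.119), did not pass. The summed level of the 12 was 819 to 920 CPM in the controls, 2770 to 3194 CPM after knock-down and 205 to 250 CPM in the RIP. CD14 and FCN1 were at 0 in all groups. LYZ, which encodes lysozyme, made up most of the sum in the RNA-seq groups, with 671 to 785 CPM in the controls, 2434 to 2819 CPM after knock-down and 34.3 to 60.4 CPM in the RIP. Without LYZ, a choice made after seeing the data, the sum was 135 to 148 CPM in the controls, 317 to 375 CPM after knock-down and 170 to 189 CPM in the RIP, which is then above the controls. The part of this in the lower HOXA and MEIS1 levels was not tested.

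**Figure D4:**
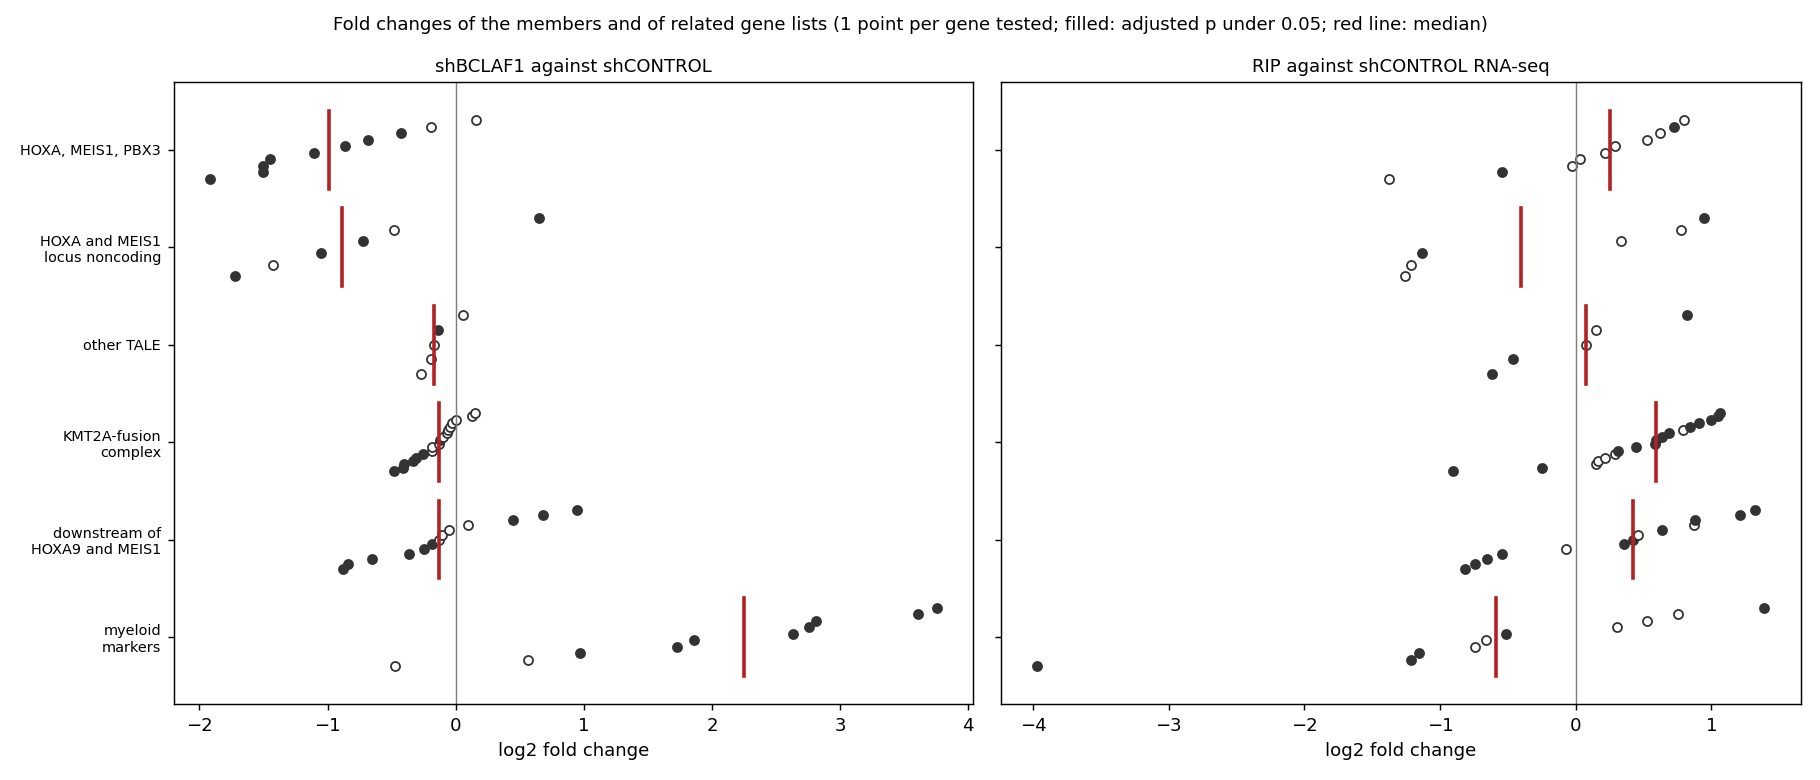
Log2 fold changes after knock-down and in the RIP for the members and the lists of related genes. Points are tested genes, filled where the edgeR adjusted p is under 0.05, and the red line is the list's median. After knock-down the members' median lies at -0.99 and that of the myeloid markers at 2.25.

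Patterns over the 9 libraries were compared by the root mean square difference of log2 CPM after each gene was centred on its own mean, among 11847 genes above 0 in all libraries with a mean of at least 50 counts. The difference describes these libraries, which share their depth and scaling. The genes nearest to HOXA9 were ALPK1 (0.0586), TAF4B (0.0640), U2SURP (0.0700), ZMYM4 (0.0780) and VWA7 (0.0790), where HOXA9's own variation was 0.48. Those nearest to MEIS1 were HERPUD1 (0.0746), MIX23 (0.0985), CCRL2 (0.101), EPB41L4A-AS1 (0.126) and ANXA2R-AS1 (0.127), where its own variation was 0.49. HOXA9 and MEIS1 differed by 0.27, with 1426 genes nearer to HOXA9 than MEIS1 was and 289 nearer to MEIS1 than HOXA9 was. HOXA5 and HOXA3 were much closer in rank, with 1 gene nearer to HOXA5 than HOXA3 was, at a difference of 0.24 beside a variation of 1.08 in HOXA5. HOXA3 spans HOXA5, and how counts were divided between them was not tested.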

How the data were processed

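RNA-seq of shCONTROL and shBCLAF1 cells and BCLAF1 RIP were measured in 3 libraries each. The authors deposited estimated counts (expected counts) per gene, as whole numbers without normalization. The submitters' processing notes name hg38, STAR 2.7.11b and StringTie 2.2.3, and the annotation and counting settings are not given in the sources used here. An entry naming no gene, with 2.18% to 3.75% of the counts in 8 libraries, was left out.

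Knock-down and RIP were fitted separately on 6 libraries each with edgeR 4.0.16 in R 4.3.3 (filterByExpr, TMM, prior count 2, quasi-likelihood F-test, Benjamini-Hochberg over all genes tested, threshold 0.05). The fits were tested on simulated data. Alternatives were other scalings, no filter, 1 fit of all libraries, DESeq2 1.42.0, a replicate block, a minimum or tested fold change, another RIP reference and leaving out each library. Same-numbered replicates did not deviate together. The floor covers counting error only. The standard errors were derived from the quasi-likelihood fits and include the spread between libraries. Upstream sequences and positions came from RefSeq tables (GRCh38.p14).

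The members and lists were chosen with earlier results of these data known, and 1 gene beside the members is not reported here. All members are named. From each related list up to 3 genes with the smallest adjusted p in each comparison were to be named. This was not followed throughout, for example not for the KMT2A-fusion complex in the RIP or the myeloid markers. The genes named there are not always those with the smallest adjusted p. Others appear where they were singled out after their values were seen. The genes most like HOXA9 and MEIS1 are the 5 with the smallest difference each, and the comparison of HOXA5 with HOXA3 was chosen after its value was seen.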

Additional observations from a re-analysis of the deposited data

How the results depend on the processing

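After knock-down, the number of members called lower was 8, or 7 with the replicate block and 7 to 9 with 1 library left out, and 5 with a minimum log2 fold change of 1. The number called higher was 0, against 1 (PBX3) under total counts, upper quartile scaling and DESeq2, and 0 to 1 with 1 library left out. In the RIP 0 members were enriched, against 4 (HOXA3, HOXA5, HOXA6 and HOXA7) with the mean of both RNA-seq groups as reference, a reference that the lower shBCLAF1 levels of these genes bring down, and 0 to 1 when each library was dropped in turn. HOXA11's log2 fold change in the RIP changed sign, to 0.076 against that mean and between -0.14 and 0.041 with 1 library left out. That of PBX3 was -0.082 under total counts, -0.036 against that mean and between -0.085 and 0.19 with 1 library left out. The cause was not tested in these cases.

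Over all genes, the replicate block gave 2271 higher and 2538 lower after knock-down, against 2625 and 2859 without it, and 3244 and 3262 in the RIP, against 4107 and 4124. Same-numbered libraries correlated by -0.017 to 0.107 in their deviations from the group means, so the numbers were not taken to pair them. The fit of all 9 libraries gave 1129 higher and 1318 lower genes after knock-down. Testing the RIP against a minimum log2 change of 1 gave 732 enriched and 1142 depleted genes, against 1846 and 2253.

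Depth limits HOXA4 most, with 26 to 95 counts per RNA-seq library. How counts of overlapping HOXA genes and antisense RNAs were divided was not tested.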
